A study of Mus musculus with 6 samples.

Results

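Cholesterol synthesis and lipogenesis were examined through 36 named genes, chosen by symbol with no measured value in the rule. They comprise 5 genes of sterol-sensing control, 7 enzymes from acetyl-CoA to farnesyl diphosphate, 11 enzymes from squalene to cholesterol, 1 sterol transfer protein, 4 enzymes of fatty acid synthesis, 6 desaturases and elongases, and 2 sterol exporters. All 36 were among the 46517 genes of the count tables, and all 36 were among the 15862 genes with enough reads to be tested. Poly(A) RNA of primary cultured mouse renal tubule epithelial cells (RTECs) was sequenced in 3 control (CTL) cultures and 3 cultures given TGF-β1, a profibrotic cytokine, at 50 ng/ml for 24 h. The cells of both groups came from kidneys of wild-type FvB mice, aged 4 to 6 weeks by the labels, and both groups were changed to serum-free medium for 24 h before the treatment. No vehicle for CTL is named in the labels. The labels do not tell whether the cultures came from separate animals, so the p-values measure only the spread between these cultures, which may be technical.

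Cells make cholesterol and fatty acids from cytosolic acetyl-CoA, which ATP citrate lyase (Acly) splits from citrate. Transcription of most of these enzymes is driven by the SREBP factors, encoded by Srebf1 and Srebf2, which are held in the endoplasmic reticulum by SCAP and the INSIG proteins while sterols are plentiful. When sterols are in excess, liver X receptors drive the exporters Abca1 and Abcg1, and the proximal tubule normally draws its energy from fatty acid oxidation.

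Between the groups, 1 of the 36 transcripts, Acly, was called higher with TGF-β1, and 5 were called lower: Insig2, Sqle, Lss, Elovl6 and Abca1. These calls are at an adjusted p below 0.05 in edgeR's quasi-likelihood test with Benjamini-Hochberg adjustment over all genes tested. Of all 15862 genes, 5.0% were called higher and 6.69% lower, beside 2.78% and 13.9% of the members. With the replicate number of the labels as a block, 2 members were higher and 10 were lower, where 15.1% and 19.1% of all genes were called. Neither the labels nor the methods say that cultures of equal number belong together, so the replicate pairs below rest on the numbers alone. In either direction, 6 members were called where 11.7% of all genes were, and 12 with the block where 34.2% were. The 6 members added by the block were Srebf1, Srebf2, Hmgcs1, Stard4 and Scd1 on the lower side and Dhcr7 on the higher side. The median log2 fold change was -0.10 over the 18 cholesterol enzymes and -0.044 over the 10 fatty acid enzymes, next to -0.0028 over all genes. In bulk RNA, fewer cells of a type and less RNA per cell cannot be told apart.

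**Figure D1:**
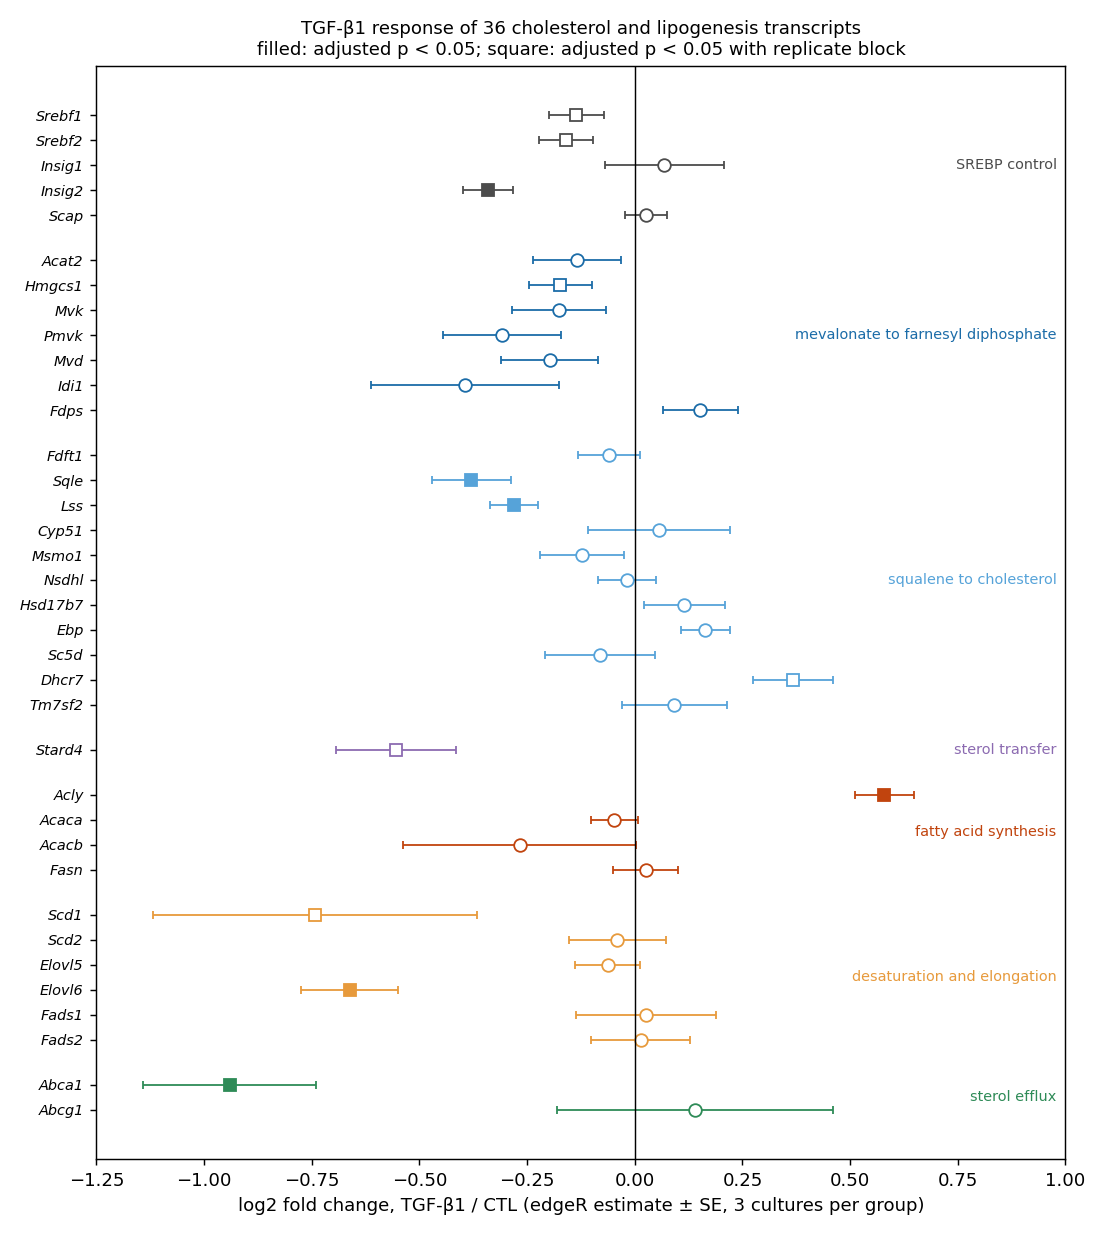
log2 fold changes (TGF-β1 over CTL) of the 36 transcripts by role, from edgeR without the block, as points with standard errors on the horizontal axis (3 cultures per group). Filled points passed the test and squares passed it with the replicate block; Acly, at 0.58, is the only filled point right of 0, and Abca1, at -0.94, lies farthest left.

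The 250 bases before the RefSeq transcription start were read on GRCm38.p6 for 28 of the 36 genes. Fdps, Fdft1, Sqle, Stard4, Scd1, Scd2, Fads1 and Abcg1 had no entry. 4 windows are shown: Acly and Abca1 for the rise and the largest fall among the called members, Lss for the fall with the closest replicates, and Hmgcs1 because it held the sterol regulatory element letters searched. Capitals mark matches, on either strand, to the sterol regulatory element TCACNCCAC, the E-box CACGTG, the NF-Y box CCAAT and the Sp1 box GGGCGG, and no marked matches overlap in these windows. The Hmgcs1 window lies at chr13:119690101-119690350, plus strand, that of Lss at chr10:76531355-76531587, plus strand (its last 17 bases, which are exonic in the annotation, are left out), that of Acly at chr11:100528001-100528250, minus strand, and that of Abca1 at chr4:53159896-53160145, minus strand.
Hmgcs1: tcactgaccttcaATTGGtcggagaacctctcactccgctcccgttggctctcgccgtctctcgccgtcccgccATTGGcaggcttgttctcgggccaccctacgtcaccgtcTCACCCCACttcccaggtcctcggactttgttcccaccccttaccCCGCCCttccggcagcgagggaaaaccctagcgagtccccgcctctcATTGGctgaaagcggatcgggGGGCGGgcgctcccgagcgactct
Lss: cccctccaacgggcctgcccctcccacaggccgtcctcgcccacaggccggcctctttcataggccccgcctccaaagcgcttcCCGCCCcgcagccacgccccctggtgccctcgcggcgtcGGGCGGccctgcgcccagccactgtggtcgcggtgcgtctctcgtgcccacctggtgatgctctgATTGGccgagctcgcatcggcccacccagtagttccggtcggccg
Acly: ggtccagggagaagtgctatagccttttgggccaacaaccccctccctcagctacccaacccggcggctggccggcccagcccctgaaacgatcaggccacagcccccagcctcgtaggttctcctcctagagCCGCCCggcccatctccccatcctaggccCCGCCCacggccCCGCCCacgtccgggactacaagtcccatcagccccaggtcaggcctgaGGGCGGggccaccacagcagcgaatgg
Abca1: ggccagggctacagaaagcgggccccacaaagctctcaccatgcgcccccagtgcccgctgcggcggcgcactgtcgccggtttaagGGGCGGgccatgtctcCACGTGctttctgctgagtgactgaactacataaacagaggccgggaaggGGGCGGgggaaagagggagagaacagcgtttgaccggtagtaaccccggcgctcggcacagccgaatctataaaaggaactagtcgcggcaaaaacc

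The sterol regulatory element letters occurred in 1 of the 28 genes (3.57%), Hmgcs1, at bases -137 to -129, and in 1.22% of 27025 genes. NF-Y box letters occurred in 21 members (75.0%) and in 37.5% of all genes, and Sp1 box letters in 22 members (78.6%) and in 35.4% of all genes. The E-box was found in 7 members (25.0%), Abca1 and Dhcr7 among them, and in 6.86% of all genes. Exonic bases were not removed for these counts, and the Dhcr7 window with the E-box was exonic over all its 250 bases. All genes here means those with a promoter entry, expressed in these cultures or not, whereas every member had enough reads to be tested. The Acly window held 4 Sp1 box matches and no match to the other 3 motifs, whereas the Lss window held 1 NF-Y box and 2 Sp1 boxes. A gene counted once when any of its windows matched, and 23 of the 28 members had a single window. These are matches of letters within the windows only.

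Among the control genes, Insig2, which encodes an anchor that retains SCAP and SREBP in the endoplasmic reticulum, fell. Insig2 (ENSMUSG00000003721.13, chr1:121304353-121332589, minus strand) had 2456, 2429 and 2427 normalized counts in CTL replicates 1, 2 and 3, and 1896, 1813 and 2066 in TGF-β1 replicates 1, 2 and 3. Normalized counts here are reads scaled by TMM factors to a common library size. The CTL cultures lay close together, and every TGF-β1 culture was below them. The means were 2437 ± 16.2 (SD, n = 3) and 1925 ± 129 (SD, n = 3), with a log2 fold change of -0.34 (SE 0.06, edgeR adjusted p = 0.0195).

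Insig1, the paralog that is itself a well-known SREBP target, did not pass the test. Insig1 had 389, 436 and 354 normalized counts in CTL and 359.5, 483 and 396 in TGF-β1 cultures, with replicate 2 highest in both groups. Its log2 fold change was 0.069 (SE 0.14, edgeR adjusted p = 0.788), and the sign turned to -0.0062 when counts were scaled by library size only. Scap, the sterol sensor, had 3033 ± 66.4 normalized counts in CTL and 3088 ± 138 in TGF-β1 cultures (SD, n = 3 each), a log2 fold change of 0.026 (SE 0.05) that also changed sign, to -0.048, with library size only.

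Both SREBP genes were called only with the replicate block. Srebf1, whose products chiefly drive fatty acid synthesis, had 3212, 3154 and 2823 normalized counts in CTL and 2862, 2840.2 and 2663 in TGF-β1 cultures. Srebf2, which chiefly drives cholesterol synthesis, had 4305, 4145 and 3865 in CTL and 3879.9, 3661 and 3483 in TGF-β1 cultures. The groups overlapped for both genes, while each TGF-β1 culture was below the CTL culture of its own number. The log2 fold change was -0.14 (SE 0.06, edgeR adjusted p = 0.226, and 0.0441 with the block) for Srebf1. For Srebf2 it was -0.16 (SE 0.06, edgeR adjusted p = 0.155, and 0.0174 with the block).

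None of the 7 enzymes from acetyl-CoA to farnesyl diphosphate passed edgeR's test without the block, where 0 had an unadjusted p below 0.05 and DESeq2 and limma-voom also called 0. Of these enzymes, 5 were lower in all 3 replicate pairs, as were 32.6% of all genes. Hmgcs1, the HMG-CoA synthase of the cytosol, was called lower with the block. Hmgcs1 (ENSMUSG00000093930.1, chr13:119690379-119708260, plus strand) had 2697, 2814 and 2748 normalized counts in CTL and 2316, 2706 and 2306 in TGF-β1 cultures. TGF-β1 replicates 1 and 3 were below every CTL culture, whereas replicate 2 overlapped the CTL range. The log2 fold change was -0.17 (SE 0.07, edgeR adjusted p = 0.18, and 0.0318 with the block). Without TGF-β1 replicate 2 it was -0.26, with an edgeR adjusted p of 0.0323. In the annotation, 12.1% of its exon bases are shared with Gm48342 on the other strand.

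The other 6 of these enzymes had log2 fold changes from -0.39 for Idi1 to 0.15 for Fdps. Idi1, the isopentenyl diphosphate isomerase and the lowest of the group per kb, had 124, 124 and 104 normalized counts in CTL and 80.2, 117 and 70.4 in TGF-β1 cultures, with SE 0.22 and an edgeR adjusted p of 0.294. Pmvk, phosphomevalonate kinase, lay below CTL in every TGF-β1 culture, at 129, 169 and 152 against 197, 188 and 171 normalized counts, with an edgeR adjusted p of 0.201. Fdps, farnesyl diphosphate synthase, lay above CTL in every TGF-β1 culture, at 319, 359 and 315 against 301, 294 and 298, with an edgeR adjusted p of 0.307. Of the Fdps exon bases, 26.7% are shared with Gm43738 on the same strand, where a read cannot be assigned to 1 gene. Mvk, Mvd and Acat2, which act as mevalonate kinase, mevalonate diphosphate decarboxylase and acetoacetyl-CoA thiolase, showed log2 fold changes of -0.18, -0.20 and -0.13, none of them called.

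From squalene to cholesterol, Sqle and Lss were called lower among 11 enzymes. Squalene epoxidase, encoded by Sqle (ENSMUSG00000022351.13, chr15:59315077-59331192, plus strand), catalyzes the first oxygenation step of the sterol branch. Sqle had 1317, 1309 and 1332 normalized counts in CTL and 920.2, 1158 and 965 in TGF-β1 cultures. The TGF-β1 cultures all lay below CTL, and TGF-β1 replicate 2 stood nearer to CTL than the other two. Means of 1319 ± 12.1 and 1014 ± 126 (SD, n = 3 each) gave a log2 fold change of -0.38 (SE 0.09, edgeR adjusted p = 0.0488). This p-value is close to the threshold, and with RLE normalization it was 0.0518.

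Lanosterol synthase, encoded by Lss (ENSMUSG00000033105.11, chr10:76531588-76557138, plus strand), closes the sterol rings. Lss had 671, 671 and 677 normalized counts in CTL and 559.6, 555 and 547 in TGF-β1 cultures. Both groups were tight and did not overlap, with means of 673 ± 3.46 and 554 ± 6.23 (SD, n = 3 each). The log2 fold change was -0.28 (SE 0.06, edgeR adjusted p = 0.028), and the log2 ratios within replicate pairs were -0.26, -0.27 and -0.31. Without a filter beyond 1 count the edgeR adjusted p was 0.0716.

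Dhcr7, which reduces 7-dehydrocholesterol to cholesterol in the last step of one branch, had the opposite sign. Dhcr7 (ENSMUSG00000058454.13, chr7:143823145-143848410, plus strand) had 732, 767 and 697 normalized counts in CTL and 939, 1048 and 846 in TGF-β1 cultures. All TGF-β1 cultures were above CTL, and replicate 2 was highest in both groups. The log2 fold change was 0.37 (SE 0.09), with an edgeR adjusted p of 0.0528 without the block and 0.0024 with it. Without the block it also passed by DESeq2 (adjusted p = 0.0154), by edgeR with no filter beyond 1 count (0.0381) and by edgeR without TGF-β1 replicate 3 (0.0482). Dhcr7 did not pass with RLE normalization, library size only, limma-voom or at least 10 counts per sample. It passed in 1 of the 6 fits lacking 1 culture, where its edgeR adjusted p reached 0.183. Ebp, a sterol isomerase, also lay above CTL in every TGF-β1 culture, at 806, 849 and 796 against 717, 742 and 729 normalized counts, with a log2 fold change of 0.16 (SE 0.06) and an edgeR adjusted p of 0.117.

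The remaining 7 enzymes of this stretch were Fdft1, Cyp51, Msmo1, Nsdhl, Hsd17b7, Sc5d and Tm7sf2. Their log2 fold changes ran from -0.12 for Msmo1, a methylsterol oxidase, to 0.12 for Hsd17b7, a sterol ketoreductase, and none passed the test. Cyp51, the lanosterol demethylase, varied more between replicates than between groups, with 993, 1203 and 917 normalized counts in CTL and 919, 1318 and 999.8 in TGF-β1 cultures. Its estimate of 0.056 (SE 0.17) turned to -0.020 with library size only. Nsdhl, a sterol dehydrogenase, had the tightest CTL values of these 7, 781 ± 3.21 (SD, n = 3), and 771 ± 53.6 (SD, n = 3) with TGF-β1. Fdft1, squalene synthase, shares 18.3% of its exon bases with Ctsb on the other strand, and its log2 fold change was -0.059 (SE 0.07).

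The START-domain protein encoded by Stard4 carries cholesterol between membranes. Stard4 (ENSMUSG00000024378.8) had 1147, 885 and 1237 normalized counts in CTL and 774, 661 and 789.5 in TGF-β1 cultures. Replicate 2 was lowest in both groups, and the groups did not overlap. The log2 fold change was -0.55 (SE 0.14), with an edgeR adjusted p of 0.0543 without the block and 0.000411 with it. Without the block it also passed by DESeq2 (adjusted p = 0.00712), and by edgeR with no filter beyond 1 count (0.0438), with library size only (0.0426) and without CTL replicate 2 (0.0228). Stard4 did not pass with RLE normalization, limma-voom or at least 10 counts per sample. It passed in 1 of the 6 fits lacking 1 culture, where its edgeR adjusted p reached 0.19.

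Acly was the single member called higher by edgeR without the block, and also the most abundant of the 36 per kb of exon. Acly (ENSMUSG00000020917.16, chr11:100476353-100528000, minus strand) had 12558, 11414 and 11745 normalized counts in CTL and 18924, 17512 and 16946 in TGF-β1 cultures. Every TGF-β1 culture was above every CTL culture, and the log2 ratios within replicate pairs were 0.59, 0.62 and 0.53. The means of 11906 ± 589 and 17794 ± 1019 (SD, n = 3 each) corresponded to a 1.49-fold level and a log2 fold change of 0.58 (SE 0.07, edgeR adjusted p = 0.00728).

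The next enzymes of fatty acid synthesis were not called. Fasn, the fatty acid synthase, had 7775, 7080.0 and 7508 normalized counts in CTL and 7939, 6871 and 7956 in TGF-β1 cultures, which overlapped. Its log2 fold change was 0.026 (SE 0.08, edgeR adjusted p = 0.858), and the interval of 2 SE either side ran from -0.12 to 0.18. Acaca, the cytosolic acetyl-CoA carboxylase, had 1214 ± 33.0 and 1175 ± 46.5 normalized counts in CTL and TGF-β1 cultures (SD, n = 3 each), with a log2 fold change of -0.047 (SE 0.05, edgeR adjusted p = 0.62). Acacb, its mitochondrial isoform, was the lowest member, at 49.3, 75 and 80.7 normalized counts in CTL and 52.8, 44.5 and 72.3 in TGF-β1 cultures.

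Of 6 desaturases and elongases, Elovl6 was called lower by edgeR without the block. Elovl6 (ENSMUSG00000041220.9, chr3:129532355-129638495, plus strand) extends saturated and monounsaturated fatty acids such as palmitate. It had 560.1, 597 and 500.5 normalized counts in CTL and 313, 391 and 345 in TGF-β1 cultures, and the groups did not overlap. Means of 553 ± 48.7 and 349 ± 39.1 (SD, n = 3 each) gave a log2 fold change of -0.66 (SE 0.11, edgeR adjusted p = 0.0188). Elovl5, which extends polyunsaturated fatty acids, had 2677 ± 245 and 2563 ± 109 normalized counts (SD, n = 3 each), a log2 fold change of -0.063 (SE 0.08, edgeR adjusted p = 0.64).

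Scd1, a stearoyl-CoA desaturase, was called lower with the block and not in the same fit without it. Scd1 (ENSMUSG00000037071.2, chr19:44394455-44407879, minus strand) had 881, 1278 and 654 normalized counts in CTL and 424, 858 and 402 in TGF-β1 cultures. Replicate 2 was highest in both groups, so that TGF-β1 replicate 2 lay within the CTL range, while the log2 ratios within replicate pairs were -1.06, -0.58 and -0.70. The log2 fold change was -0.74 (SE 0.38), with an edgeR adjusted p of 0.258 without the block and 0.000659 with it. When CTL replicate 2 was left out it was -0.45 (edgeR adjusted p = 0.491), and when TGF-β1 replicate 2 was left out it was -1.19 (edgeR adjusted p = 0.0798). Scd2, the more abundant paralog per kb, had 11456, 12433 and 10796 normalized counts in CTL and 9985, 13058 and 10680.0 in TGF-β1 cultures, and a log2 fold change of -0.041 (SE 0.11, edgeR adjusted p = 0.85). Reads aligning to more than 1 place were not counted, so the levels of these paralogs are uncertain to that extent. The desaturases Fads1 and Fads2, which make polyunsaturated fatty acids, had log2 fold changes of 0.026 (SE 0.16) and 0.014 (SE 0.12) and turned to -0.049 and -0.061 with library size only.

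Of the 2 exporters, Abca1 fell and Abcg1 was not called. ABCA1, which passes cholesterol to lipid-poor apolipoproteins, is encoded by Abca1 (ENSMUSG00000015243.4, chr4:53030787-53159895, minus strand). Abca1 had 5440.2, 4983 and 5158 normalized counts in CTL and 2825, 1904 and 3385 in TGF-β1 cultures. All TGF-β1 cultures were below CTL, with a spread among them that was larger than in CTL (SD 748 against 231), and replicate 2 was lowest in both groups. The TGF-β1 mean was 0.521 of CTL by the fitted fold, with a log2 fold change of -0.94 (SE 0.20, edgeR adjusted p = 0.0371). Without a filter beyond 1 count the call was lost, with an edgeR adjusted p of 0.106. Abcg1, which passes cholesterol to mature lipoproteins, had 918, 572 and 1059.9 normalized counts in CTL and 1046, 592 and 1168 in TGF-β1 cultures, with a log2 fold change of 0.14 (SE 0.32, edgeR adjusted p = 0.819).

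**Figure D2:**
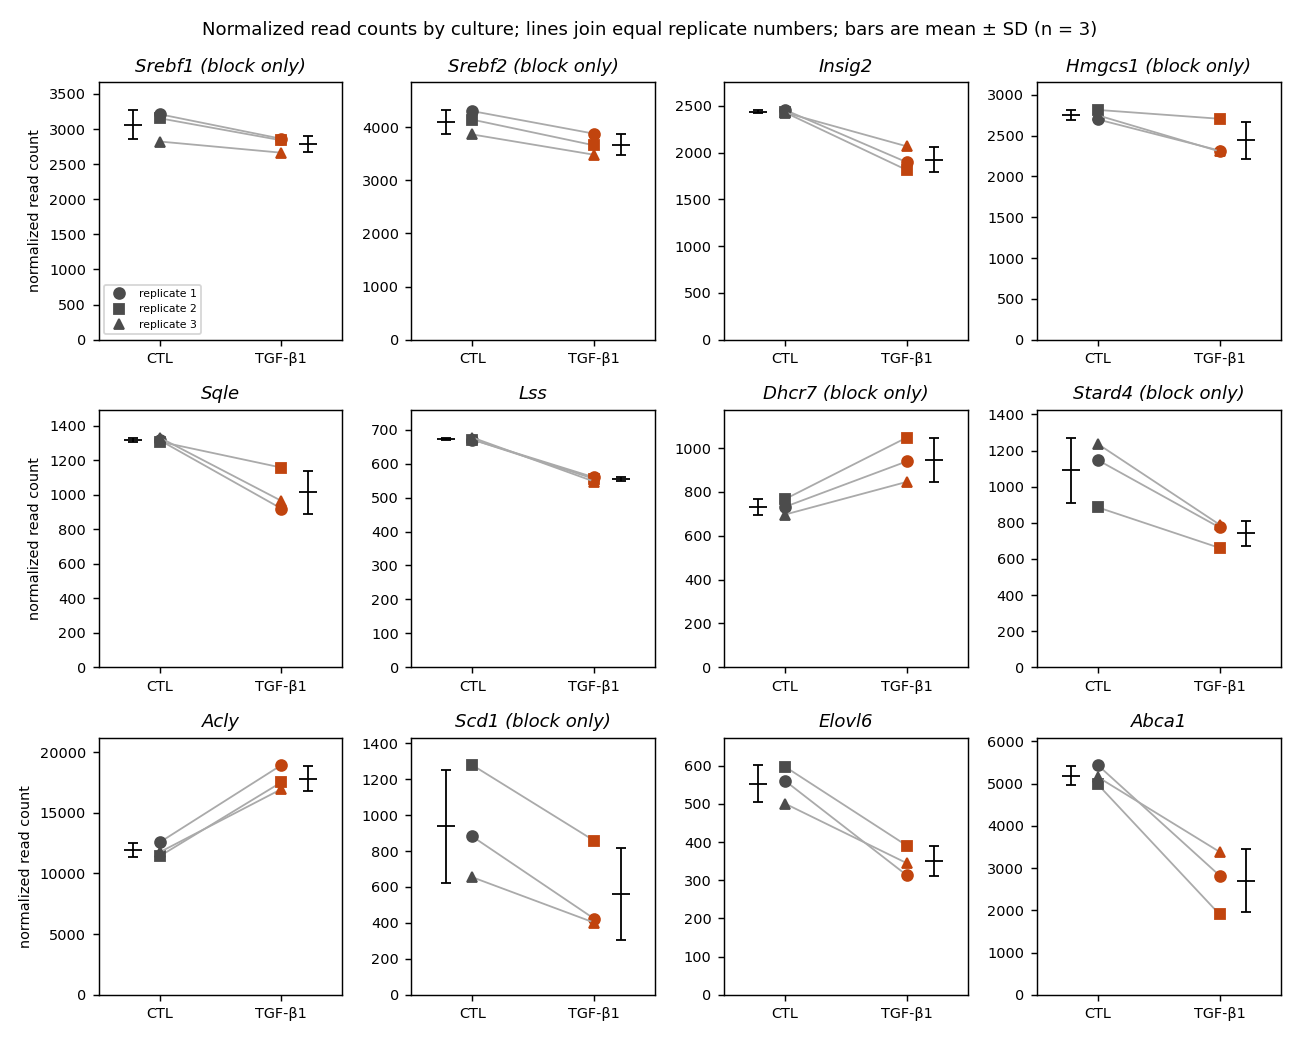
Normalized read counts (vertical axes, from 0) of the 12 members called by edgeR, where block only marks those that passed with the block and not in the same fit without it, in each CTL and TGF-β1 culture; symbols are replicate numbers, lines join equal numbers, and bars show mean ± SD (n = 3). Lss, Insig2 and Acly separate the groups cleanly, whereas the 3 lines of Scd1 run side by side at different heights.

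Over all 36 members, the groups did not overlap for 11. TGF-β1 was above CTL for 4 of them (Acly, Dhcr7, Ebp and Fdps) and below for 7 (Insig2, Pmvk, Sqle, Lss, Stard4, Elovl6 and Abca1). Of all genes tested, 17.2% lay wholly above and 18% wholly below. In the 3 replicate pairs, 7 members were higher in every pair, 18 were lower in every pair and 11 were mixed, where 30.4% of all genes were higher and 32.6% lower in every pair. Before adjustment, 10 members had an edgeR p below 0.05 where 28.6% of all genes did, and 17 did with the block where 44.0% of all genes did.

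Single cultures weighed on the calls. Acly stayed past the threshold when any 1 of the 6 cultures was left out, with an edgeR adjusted p of at most 0.0454. Insig2 lost the call without CTL replicate 1, CTL replicate 2 or TGF-β1 replicate 1, with adjusted p of 0.0995, 0.0508 and 0.0843 in the same edgeR test, while its log2 fold change stayed between -0.39 and -0.30 in the 6 fits. Elovl6 lost it without CTL replicate 1, CTL replicate 2, TGF-β1 replicate 1 or TGF-β1 replicate 3, at 0.0935, 0.0505, 0.0764 and 0.0612, with log2 fold changes of -0.75 to -0.58 over the 6 fits. For Abca1 the call was lost without any 1 CTL culture, at 0.141, 0.073 and 0.0825, or without TGF-β1 replicate 1, at 0.118, with log2 fold changes of -1.14 to -0.75 over the 6 fits. Sqle kept the call only without TGF-β1 replicate 2, and its edgeR adjusted p was 0.0971 to 0.166 in the other 5, with log2 fold changes of -0.49 to -0.31 over all 6. Lss lost the call whichever culture was left out, with an edgeR adjusted p between 0.0549 and 0.135, although its log2 fold change remained between -0.29 and -0.27.

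Levels per kb of exon (CPM divided by exon length, where CPM is the count relative to the TMM-scaled total of its library) set the members in order within CTL. Exon length covers every annotated exon of a gene, whichever transcripts are expressed, so this order depends on the annotation. Acly was first at 71.2 ± 3.52 CPM per kb (SD, n = 3) and Scd2 second at 66.8 ± 4.76, and their CTL cultures overlapped. Fads2 and Fads1 followed at 41.8 ± 4.88 and 38.9 ± 7.74, also overlapping, and clear of Elovl5 at 24.0 ± 2.20. Insig2 (22.2 ± 0.147) and Fasn (21.5 ± 1.01) came next, then Hmgcs1 (18.9 ± 0.402), Srebf2 (18.05 ± 0.979) and Srebf1 (17.2 ± 1.18). Acacb was last at 0.224 ± 0.0549, and the CTL mean of Acly was 318 times higher. Of the 35 neighbouring pairs in this order, 24 overlapped between the CTL cultures.

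Within role groups, the level per kb in CTL ran from 4.02 ± 0.421 for Insig1 to 22.2 ± 0.147 CPM per kb for Insig2 among the control genes. It ran from 1.05 ± 0.105 for Idi1 to 18.9 ± 0.402 for Hmgcs1 in the mevalonate steps, and from 1.97 ± 0.0101 for Lss to 9.97 ± 0.175 for Ebp in the sterol steps. The annotated exons of Lss span 10787 bases. By CPM without the length, Lss (21.3) lay close to Ebp (23.0) in CTL, and Tm7sf2 (9.13) was the lowest sterol enzyme. Per kb, Elovl6 was the lowest of the desaturases and elongases, at 2.71 ± 0.239, against Scd2 as the highest. With TGF-β1, Acly stood at 106 ± 6.10 CPM per kb (SD, n = 3), Scd2 at 65.0 ± 9.31, Abca1 at 8.24 ± 2.28 after 15.8 ± 0.703 in CTL, and Elovl6 at 1.72 ± 0.192. Scd2 exceeded Scd1 by 3.52 ± 0.38 on the log2 scale per kb in CTL and by 4.25 ± 0.42 with TGF-β1 (SD, n = 3 each), and these ratios overlapped between the groups.

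**Figure D3:**
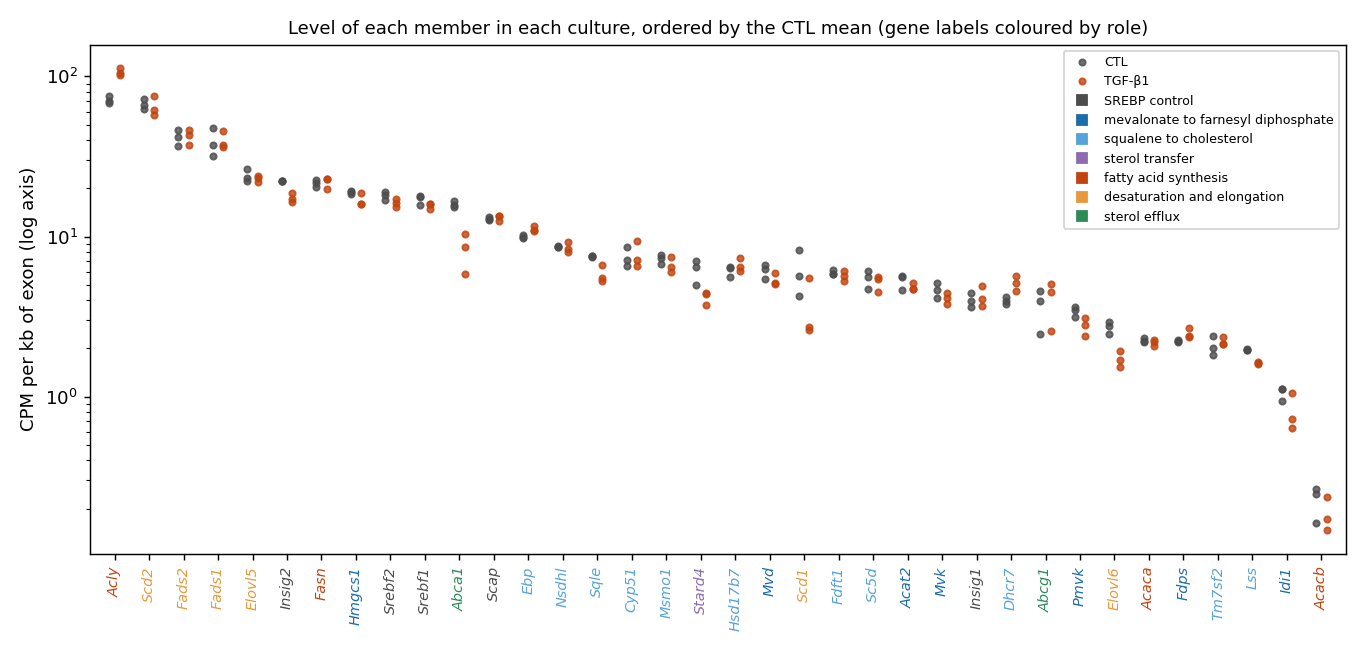
CPM per kb of exon (log axis) of each member in each of the 6 cultures, ordered by the CTL mean from left to right, with gene labels coloured by role. Acly and Scd2 lead, the sterol enzymes run from Ebp down to Lss near the low end, and Acacb lies lowest at 0.224 CPM per kb in CTL.

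Many of these transcripts ranked the replicate numbers alike in both groups. In 16 of the 36 members (44.4%) replicate 2 was the highest culture of CTL and also of TGF-β1, where 24.9% of all genes tested had this order. These were 10 of the 18 cholesterol enzymes (Hmgcs1, Mvk, Mvd, Idi1, Fdft1, Cyp51, Msmo1, Hsd17b7, Ebp and Dhcr7), 5 of the 6 desaturases and elongases, and Insig1. Replicate 2 was lowest in both groups for 9 members (25.0%), Stard4, Fasn, Abca1 and Abcg1 among them, and for 24.9% of all genes. Replicate 1 was highest in both groups for 4 members (9.9% of all genes) and lowest for 1 (8.11%), and replicate 3 was highest for 6 (20.1%) and lowest for 10 (20.7%).

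Scd1 in replicate 2 exceeded the mean of replicates 1 and 3 by 0.75 on the log2 scale in CTL and by 1.05 with TGF-β1. The same difference for Cyp51 was 0.33 in CTL and 0.46 with TGF-β1. Abcg1 differed in the other direction, by -0.79 in CTL and -0.90 with TGF-β1. For Scd1, Cyp51 and Abcg1 these differences between cultures of 1 group were as large as, or larger than, the difference between the groups. For Abca1 the difference was -0.088 in CTL and -0.70 with TGF-β1, and for Idi1 it was 0.13 and 0.64.

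**Figure D4:**
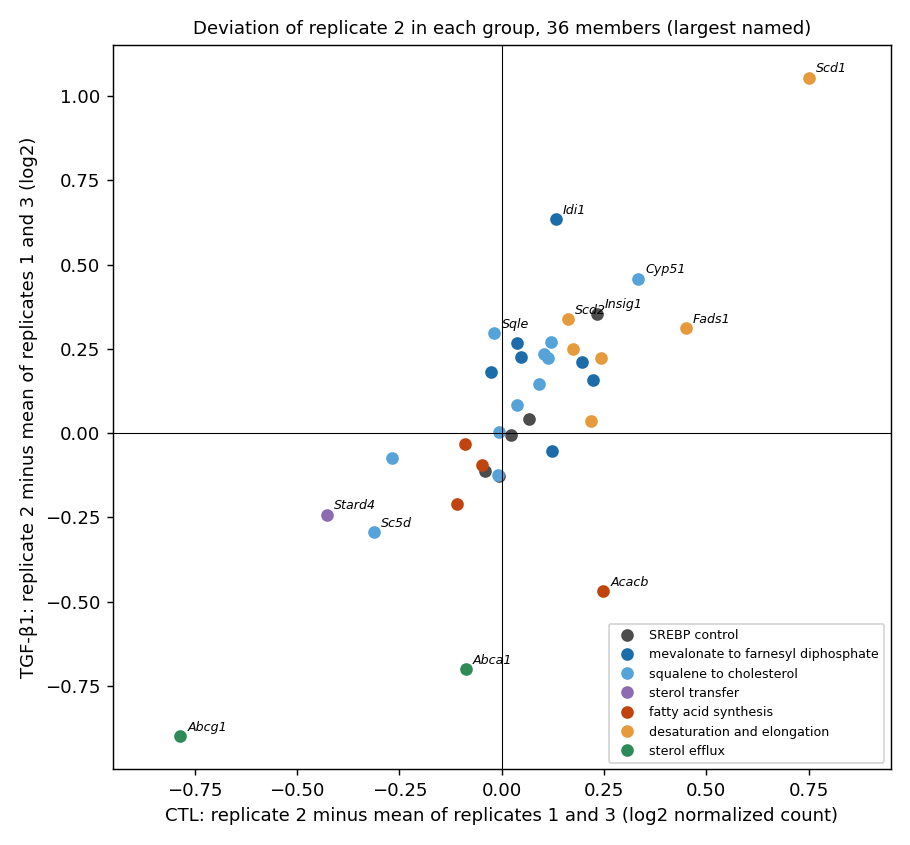
Difference of replicate 2 from the mean of replicates 1 and 3 (log2 normalized count) in CTL (horizontal axis) and TGF-β1 (vertical axis), 1 point per member coloured by role. Scd1 lies at the upper right (0.75 and 1.05) and Abcg1 at the lower left (-0.79 and -0.90), and Acacb lies in the lower right quadrant.

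Markers of cell types also differed between replicate numbers. The summed level of 7 epithelial markers was lowest in replicate 2 of both groups, with 1020 CPM in CTL and 886 CPM in TGF-β1 cultures, in ranges of 1020 to 2754 and 886 to 2242. The sum of 8 fibroblast markers was highest in replicate 2 of both groups, with 2447 and 2806 CPM, in ranges of 1258 to 2447 and 1481 to 2806. Of these 8 markers, 4 were highest and 2 lowest in replicate 2 of both groups, and the highest single level was 1835 CPM. Of the 7 tested, edgeR called 0 without the block (0 with an unadjusted p below 0.05, and 0 by DESeq2 or limma-voom) and 4 with it (Pdgfrb and Dcn lower, Col1a1 and Postn higher), and the untested Lum stayed below 1 CPM in every culture. All 5 adipocyte markers (Adipoq, Plin1, Cidec, Lep and Fabp4) had at most 3 counts in every library, and Cidec had 0 in all.

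Library totals on genes ranged from 28313080 to 34183497 reads, and 3 counts correspond to 0.0890 to 0.103 CPM on the TMM-scaled totals. Fn1 and Skil, which are known to respond to TGF-β1, were called higher, with log2 fold changes of 1.04 and 0.76. Of the 7 epithelial markers, none was under 1 CPM and Cdh16 (-1.50) and Pax8 (-0.77) fell, and with the block 5 were lower. Of 9 proximal tubule markers, 5 were under 1 CPM in every culture (Slc34a1, Slc5a2, Slc5a12, Slc22a6 and Slc22a8), and the sum over all 9 was 78.2 to 94.2 CPM in CTL and 36.5 to 50.2 CPM with TGF-β1. Lrp2 (-0.93), which carried most of that sum, and Aqp1 (-2.91) were called lower, and with the block Slc6a19 was also. The sum of 7 collecting duct markers was 9.72 to 22.8 CPM in CTL and 30.1 to 57.6 CPM with TGF-β1. Hsd11b2 (1.65), which was called higher, reached 56.8 CPM alone, and 5 of the 7 stayed under 1 CPM in every culture. The other of the 2 tested (-1.77) lay below CTL in every TGF-β1 culture and was called lower with the block only. The podocyte markers Podxl and Synpo, with log2 fold changes of -0.44 and -0.52, were lower with the block and by DESeq2, and not by edgeR without the block. The part of the epithelial, fibroblast and other markers in the calls and the replicate pattern of the 36 members was not tested.

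Beyond the 36 members, 77 further genes of the same pathways were listed, and 70 could be tested. Of these, 5 (7.14%) were called higher and 4 (5.71%) lower, beside 5.0% and 6.69% of all genes. With the block 13 (18.6%) were higher and 14 (20.0%) lower, beside 15.1% and 19.1% of all genes. By DESeq2, limma-voom and edgeR without the block, 0 of 7 genes of SREBP processing and INSIG turnover and 0 of 9 genes of the isoprenoid branch were called, and 0 had an unadjusted p below 0.05 in edgeR. With the block 1 of the 7, Erlin2, was called lower, and 0 of the 9. Of the 16 tested elongases, desaturases and acyl-CoA synthetases, 3 were higher and 2 lower (5 and 4 with the block), and of 16 genes of glycerolipid synthesis and droplets 2 were higher (3 higher and 2 lower with the block). Genes of sterol sensing, storage and transport gave 1 lower call among 16, Cyp27a1, whose raw counts were 22 or fewer in each library, and 4 higher (25.0%) and 6 lower (37.5%) calls with the block.

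Plin2, the coat protein of lipid droplets, had 12328, 11094 and 13638 normalized counts in CTL and 27932, 26714 and 26312 in TGF-β1 cultures. Its log2 fold change was 1.13 (SE 0.09, edgeR adjusted p = 0.00269). This was the largest rise among the further pathway genes that were called and had a mean of at least 5 CPM. Lpin3, a phosphatidate phosphatase, rose by 1.07 (SE 0.23, edgeR adjusted p = 0.0375) on the log2 scale. Acyl-CoA synthetases, which activate fatty acids, changed in both directions. Acsl3 had 621, 575 and 679 normalized counts in CTL and 1130.4, 989 and 1235 in TGF-β1 cultures, a log2 fold change of 0.84 (SE 0.10, edgeR adjusted p = 0.00873). Acsl1 had 1371, 1304 and 1149 in CTL and 724, 594 and 771 in TGF-β1 cultures, a log2 fold change of -0.87 (SE 0.12, edgeR adjusted p = 0.0104). The groups did not overlap for Acsl1 or Acsl3. Acsl4 also rose (0.50, edgeR adjusted p = 0.0188) and Acsl5 fell (-0.47, edgeR adjusted p = 0.0453). With 1 culture left out, Plin2 kept the call in all 6 fits, Acsl1 and Acsl3 in 4, Lpin3 in 2 and Acsl5 in 1, and the edgeR adjusted p reached 0.141 for Lpin3 and 0.17 for Acsl5.

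Acss2, which makes acetyl-CoA from acetate and so feeds the same pool as Acly, went the other way. Acss2 had 231, 259 and 197 normalized counts in CTL and 131, 158 and 138 in TGF-β1 cultures. The TGF-β1 cultures all lay below CTL, with a log2 fold change of -0.68 (SE 0.14, edgeR adjusted p = 0.0331), beside 0.58 for Acly, and the call held in 2 of 6 fits lacking 1 culture. Per kb, Acly exceeded Acss2 by 6.65 ± 0.22 on the log2 scale in CTL and by 7.91 ± 0.19 with TGF-β1 (SD, n = 3 each), without overlap. Because each gene had already separated the groups, in opposite directions, this ratio could not overlap. Its two-sided exact permutation p was therefore fixed at 0.1, the smallest that 3 cultures against 3 can give. It adds nothing to the single-gene values. The ratio was 1 of 8 computed after those values were known. Insig2 over Insig1, Abca1 over Abcg1 and Elovl5 over Elovl6 also gave 0.1 in this permutation test, and the remaining ratios gave 0.2 or more.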

How the data were processed

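RNA sequencing of 3 CTL and 3 TGF-β1–treated cultures of RTECs was analysed. The authors deposited raw read counts per gene, without normalization, from single-end 50-bp reads trimmed with Trim Galore, aligned to GRCm38 with STAR 2.4.1d and counted with HTSeq 0.6.1. The strand setting and annotation release of the counting are not given in the sources used here. Rows naming no gene held 25.4 to 25.9% of the reads and were left out. Groups and replicate numbers came from the labels. For the mice, the methods give an age of 3 to 5 weeks where the labels give 4 to 6.

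Symbols, positions and exon lengths were taken from GENCODE M21, which matched 46005 of 46517 identifiers. Counts were tested in R 4.3.3 with edgeR 4.0.16 (filterByExpr, TMM, robust glmQLFit, glmQLFTest, two-sided) and Benjamini-Hochberg adjustment over 15862 genes at a threshold of 0.05. SE values were derived from the F statistic. Same-numbered cultures deviated together from their group means, with correlations across genes of 0.308, 0.663 and 0.546 against -0.593 to 0.198 for other pairs, and the replicate number was used as a block in a further fit. No library matched another within sampling noise, the lowest chi-square per degree of freedom being 9.02. Reads carried no molecular identifiers, so the 3-count floor covers counting error only.

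Alternatives were DESeq2 1.42.0, voom of limma 3.58.1, the block, scaling by RLE or by library size only, a minimum of 1 count in total or of 10 in each sample, and fits lacking 1 culture or a same-numbered pair. Members passing the test with or without the block were given by culture, and the others by range with the highest and lowest level of each role. Among the further pathway genes that were called without the block and had a mean of at least 5 CPM, the 3 largest changes in each direction were named. Cyp27a1, Acsl4 and single marker genes were named after their values were seen. The members and lists were chosen with earlier results of these data known. The lists of TGF-β1 response and podocyte markers are not reported here in full.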

Additional observations from a re-analysis of the deposited data

How the results depend on the processing

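Among all genes, 793 were called higher and 1061 lower. Library size only gave 508 higher and 1467 lower, DESeq2 gave 1201 higher, and the replicate block gave 2388 higher and 3037 lower. Leaving out single cultures gave 109 to 516 higher and 186 to 807 lower calls. Leaving out both cultures of replicate 3 gave 95 and 190, and of replicate 1 gave 0 and 0 in edgeR, where 1938 genes had unadjusted p below 0.05. Without both cultures of replicate 2, 1084 genes were called higher and 1290 lower, more than with all 6 cultures. Among the 36 members, 1 was higher and 5 lower. Higher calls became 2 without a filter beyond 1 count (where Lss and Abca1 were lost and Dhcr7 and Stard4 gained), with DESeq2 and with the block, and lower calls became 10 with the block. Leaving out single cultures gave 1 to 2 higher and 0 to 5 lower members. Without both cultures of replicate 1, or of replicate 3, 0 members were called in either direction (5 and 9 had unadjusted p below 0.05), and without both of replicate 2 Lss was lost while Hmgcs1, Stard4 and Scd1 were gained. The block lost none of the 6 calls, and limma-voom and at least 10 counts per sample changed none.

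The median of the cholesterol enzymes was -0.18 with library size only and -0.12 to -0.077 without single cultures. That of the fatty acid enzymes was -0.12 with library size only and -0.092 to 0.0020 without single cultures. Library size only turned Insig1 to -0.0062, Scap to -0.048, Cyp51 to -0.020, Fasn to -0.047, Fads1 to -0.049 and Fads2 to -0.061 on the log2 scale, where the median of all genes was -0.077. Leaving out single cultures took the log2 fold change from -0.063 to 0.16 for Insig1, -0.12 to 0.18 for Cyp51, -0.074 to 0.018 for Nsdhl, -0.18 to 0.0080 for Sc5d, -0.0096 to 0.087 for Fasn, -0.17 to 0.042 for Scd2, -0.11 to 0.014 for Elovl5, -0.096 to 0.19 for Fads1, -0.070 to 0.10 for Fads2 and -0.079 to 0.38 for Abcg1. Leaving out both cultures of a number turned Scd2 to 0.030 (replicate 1), Nsdhl to 0.021 and Elovl5 to 0.0019 (replicate 2), and Fasn to -0.0035 and Fads1 to -0.034 (replicate 3). None of these genes was called, and the causes were not tested. With 3 cultures per group, differences near the SE values given could not be told from the spread between cultures.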
